A study of Mus musculus with 6 samples.

Results

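The genes described here are 37 genes of S phase and mitosis, with Stmn1 at their head, among the 12023 genes counted in cultured normal mammary fibroblasts of 2 inbred mouse strains. The members were listed by symbol, and all 37 are in the table. Stmn1 was selected on its strain difference in these same libraries, and the other 36 were chosen by their known roles, with earlier results of these data known. The question put to them was whether Stmn1 departs from the rest. Groups were BALB/c and C57BL/6, 3 biological replicates each, from healthy untreated females aged 8 to 12 weeks. Cells of the mammary fat pad, obtained by enzyme digestion and, per the design text, a magnetic separation, were plated on collagen and cultured for 4 days. No transgene or other genotype is named, and the strains are compared without treatment. Libraries counted the 3′ ends of polyadenylated RNA.

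A dividing cell first copies its DNA and then separates the copies. Genes of S phase encode the helicase that opens the double strand, the clamp that holds the polymerase and the enzymes that make deoxynucleotides, and E2F factors drive many of them. Genes of mitosis encode cyclins, kinases, motors and centromere proteins, and are held silent in resting cells by the DREAM complex, then raised through FoxM1, B-Myb and NF-Y. Stmn1 encodes stathmin, a small phosphoprotein that binds tubulin dimers and destabilises microtubules until mitotic kinases switch it off. Freshly plated fibroblasts usually enter the cycle, so such genes are often read as a sign of dividing cells.

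Promoters are shown first because many members carry the same boxes there, a feature that their choice did not use. RefSeq promoters on GRCm38.p6 were found for 31 of the 37 members, 33 promoters in all. Those of Stmn1, Ccna2, Aurkb, Tpx2, Mcm4 and Kif20a were not used here. In the 250 bases before the start, the letters CCAAT on either strand, which NF-Y reads, stood in 29 of 33 promoters, or 87.9%, against 33.8% of all 32851 promoters. Those of Birc5, Tyms, Tk1 and Nusap1 held none of the 3 motifs searched. The cell cycle homology region, searched as TTTGAA or TTCGAA on both strands, stood in 9 of 22 promoters of mitosis members, or 40.9%, and in 2 of 11 of S phase members, against 17.1% of all. An E2F site, searched as TTTCCCGC, TTTGGCGC, TTTCGCGC or TTTGCCGC on both strands, stood in 3 of 11 promoters of S phase members and 1 of 22 of mitosis members, against 1.86% of all. These shares describe letters and not binding. The motifs and the 6 promoters shown were chosen after the sequences were seen, the latter for carrying several boxes. The stretches run 5′ to 3′ on the strand of the gene, with the matches in capitals. They are the promoters of Ccnb1 (chr13:100786534-100786600, minus strand), Ccnb2 (chr9:70421556-70421656, minus strand), Aurka (chr2:172370571-172370636, minus strand), Cdc20 (chr4:118437344-118437411, minus strand), Mcm5 (chr8:75109341-75109506, plus strand) and Mcm6 (chr1:128359706-128359830, minus strand).
Ccnb1: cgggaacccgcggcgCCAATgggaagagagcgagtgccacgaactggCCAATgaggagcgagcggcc
Ccnb2: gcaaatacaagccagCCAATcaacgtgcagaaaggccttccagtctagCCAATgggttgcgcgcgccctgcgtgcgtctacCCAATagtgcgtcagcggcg
Aurka: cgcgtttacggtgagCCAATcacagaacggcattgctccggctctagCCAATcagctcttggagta
Cdc20: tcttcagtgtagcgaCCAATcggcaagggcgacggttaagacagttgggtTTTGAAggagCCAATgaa
Mcm5: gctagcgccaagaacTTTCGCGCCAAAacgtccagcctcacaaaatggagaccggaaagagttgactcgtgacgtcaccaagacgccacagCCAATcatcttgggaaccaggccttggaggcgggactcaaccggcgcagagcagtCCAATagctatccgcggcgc
Mcm6: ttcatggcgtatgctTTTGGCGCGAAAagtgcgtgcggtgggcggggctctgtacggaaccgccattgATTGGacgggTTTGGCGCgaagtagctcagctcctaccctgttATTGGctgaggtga
In Ccnb1, Ccnb2 and Aurka, which encode mitotic cyclins and a spindle kinase, neighbouring CCAAT boxes lay 32 or 33 bases apart. The step was wider in Cdc20, Mcm5 and Mcm6, at 45, 55 and 43 bases. In Cdc20, the activator of the anaphase promoting complex, the TTTGAA box lay between 2 CCAAT boxes. Mcm5 and Mcm6, subunits of the helicase, carried E2F letters, at the distal site as overlapping matches on both strands, and Mcm6 has its CCAAT boxes on the opposite strand, printed as ATTGG.

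Total counts per library ran from 1035485 to 4665896, so that 3 counts stand for 0.612 to 2.90 CPM, the counts scaled to a common library size by trimmed mean of M values. C57BL/6 replicate 1 stood apart: of 5541 genes averaging 50 counts or more, 461, or 8.32%, lay at least 4-fold below all 5 other libraries there, against 0 to 6 genes in each of the others. Medians of the lists are therefore given with and without it. Of 10 fibroblast markers 9 were in the table, all 9 were tested and 0 passed in edgeR. Their summed share was 0.736% to 1.40% of counts in BALB/c and 0.262% to 1.44% in C57BL/6, lowest in C57BL/6 replicate 1. Keratins and other mammary epithelial markers, 9 of 10 in the table, summed to 0.156% to 0.962% in BALB/c and 0.264% to 1.46% in C57BL/6, with the highest share in C57BL/6 replicate 1. Leukocyte markers, 10 of 10 in the table with 8 tested and 0 past the threshold in edgeR, summed to 0.0643% to 0.0931% in BALB/c and 0.0840% to 0.142% in C57BL/6. All 8 had negative log2 differences. Cd68, Fcer1g, C1qa and C1qb were lower in every BALB/c library than in any C57BL/6 library, as Stmn1 was. Their log2 differences were -0.91, -1.08, -1.11 and -1.76. Csf1r, Lyz2, Tyrobp and Cd14 overlapped, at -0.92, -0.36, -0.90 and -0.04. Of all tested genes 11.4% did not overlap, in either direction. Pericyte and smooth muscle markers summed to at most 0.0530%, endothelial markers to at most 0.00821% and adipocyte markers to at most 0.00727%. The markers absent from the table were Lum for fibroblasts, Trp63 for epithelium, Tek for endothelium, and Adipoq, Plin1 and Cidec for adipocytes. In bulk RNA, fewer dividing cells and less RNA of these genes per cell cannot be told apart. The part of other cell types in the results below was not tested.

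Stmn1 was nearly absent from every BALB/c library and present in every C57BL/6 library. In order of replicate, BALB/c had 6, 4 and 1 counts of it and C57BL/6 had 55, 96 and 250. In CPM these were 4.00, 1.43 and 0.968 in BALB/c against 42.0, 75.0 and 51.0 in C57BL/6. The strains did not overlap: the highest BALB/c library was at 4.00 CPM and the lowest C57BL/6 library at 42.0 CPM. The 11 counts in BALB/c and 401 in C57BL/6 gave a ratio of 25.9, with an exact 95% counting interval of 14.3 to 52.4, which covers counting error only. The fitted log2 difference, BALB/c minus C57BL/6, was -4.68 ± 0.55 (SE), the 6th lowest of 8752 tested genes. Stmn1 was selected on this contrast, at an adjusted p of 0.0275 in edgeR, so these values describe it and test nothing. Of 8752 genes 0.206% passed in either direction and 0.137% passed as lower in BALB/c. The edgeR call was lost in 8 of 15 alternatives, with an adjusted p of 0.204 in limma-voom and 0.596 with the replicate block. The other 7 kept the call, among them DESeq2 (adjusted p = 1.9e-10) and limma-voom with quality weights (adjusted p = 0.0138). Of the 6 libraries left out in turn, 5 ended it in edgeR: without BALB/c replicate 1, 2 or 3 the log2 difference was -5.40, -4.37 or -4.44 (adjusted p = 0.0840, 0.249 and 0.265). Without C57BL/6 replicate 2 or 3 it was -4.41 or -4.75 (edgeR adjusted p = 0.121 and 0.274), and without C57BL/6 replicate 1 it was -4.87 (edgeR adjusted p = 0.0184).

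The gene lies on GRCm38 chromosome 4, 134468320 to 134473843, plus strand (ENSMUSG00000028832.11). Its exons overlap those of an annotated microRNA gene, Gm23634, which is not in the table. In a search of the last 500 nt of the longest coding transcript against all annotated transcripts, with at least 95% identity over at least 60 nt, 1 other gene matched, the pseudogene Gm11223, over 60 nt. It is not in the table either, and the sources used here do not give how shared reads were counted. The reference genome is that of C57BL/6. Whether BALB/c bases at the end of Stmn1 affect alignment was not tested.

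No other member passed the test. Of the 36, 30 passed the filter on low counts. The threshold of 0.05 was passed by 0 in edgeR, 0 in DESeq2 and 0 in limma-voom with or without library quality weights. Over all 8752 tested genes 0.206% passed in edgeR, 71 genes in DESeq2, 3 in limma-voom and 57 with quality weights. At such rates, 0 calls among 30 genes do not set the members apart from other genes. At an unadjusted p under 0.05, 1 of the 30 was found in edgeR, where 3.86% of all tested genes were. Of the 30, 23 had a positive and 7 a negative log2 difference, with a median of 0.17, beside 0.01 over all tested genes, and all 30 were below 2-fold. Without C57BL/6 replicate 1 their median was 0.08, and with quality weights in limma-voom it turned to -0.066. Standard errors ran from 0.22 to 1.04, the highest for Mcm4, so precision differed widely among members. The strains did not overlap in 4 of the 30 and, with Stmn1, in 5 of 31, or 16.1%, against 11.4% of all tested genes. The plot of strain differences shows the members by role.

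**Figure D1:**
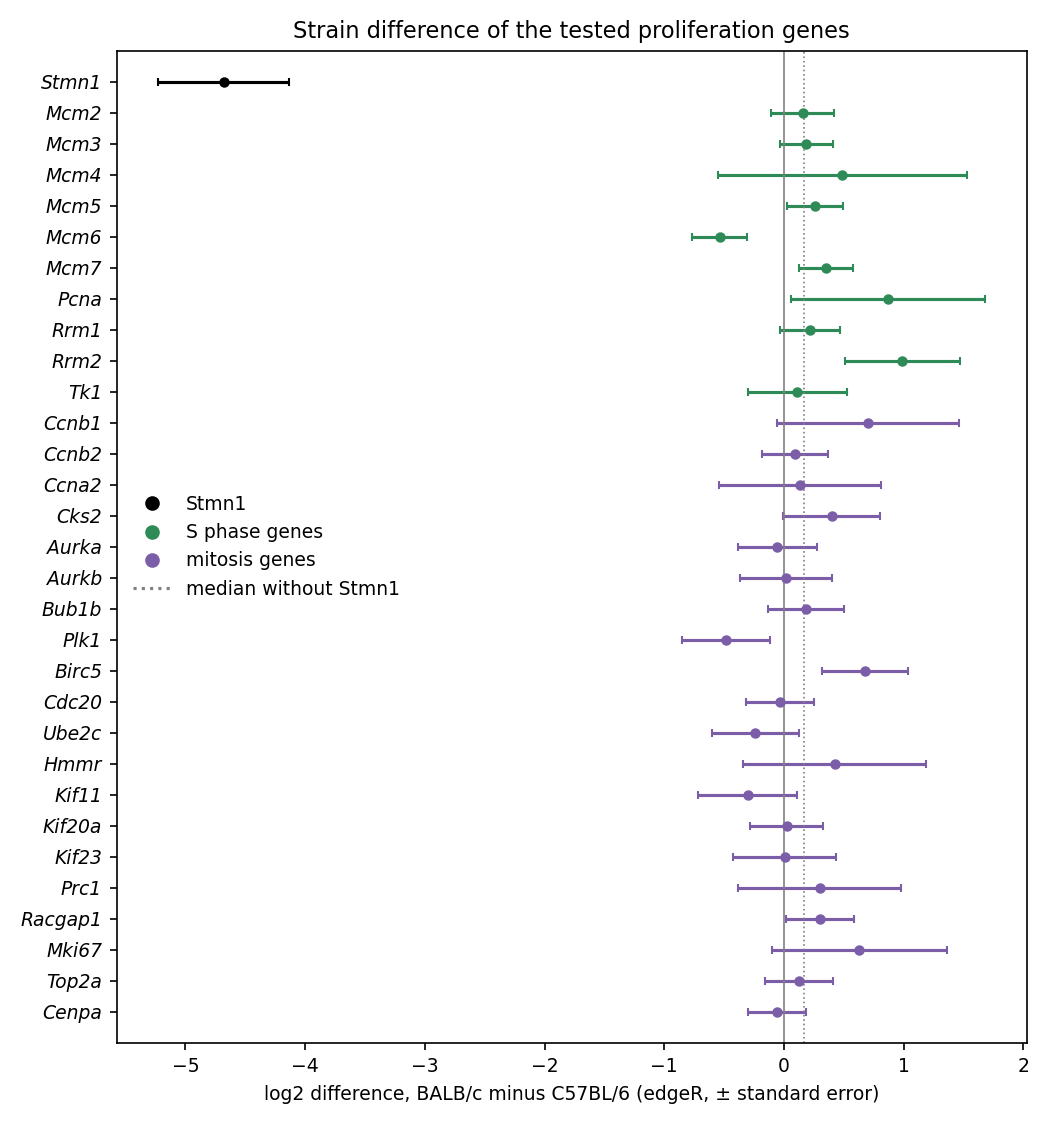
Fitted log2 difference between strains (BALB/c minus C57BL/6, horizontal axis) with its standard error for each of the 31 tested members, ordered by role. Stmn1 lies at -4.68, and the other 30 lie between -0.54 and 0.99 around their dotted median of 0.17.

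The helicase that licenses origins is a ring of Mcm2 to Mcm7. Of its 6 subunits 5 had positive differences and Mcm6 a negative one, with 0 past the threshold in edgeR. Mcm6 was at 82.7, 78.4 and 65.8 CPM in BALB/c and 104, 105 and 121 CPM in C57BL/6. Every BALB/c library lay below every C57BL/6 library, as with Stmn1 but far closer. Its log2 difference was -0.54 ± 0.23 (edgeR adjusted p = 0.954), and it was the 1 member beside Stmn1 with an unadjusted p under 0.05. Mcm7 went the other way without overlap, at 157, 143 and 135 CPM in BALB/c against 131, 104 and 107 CPM in C57BL/6. Its log2 difference was 0.35 ± 0.22 (edgeR adjusted p = 0.954). Subunits of 1 ring thus stood on opposite sides, neither past the threshold. Mcm7 counts are uncertain, as the pseudogene Gm5487 matches 361 nt of its end and exons of Ap4m1 and Cops6 overlap it on the opposite strand.

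**Figure D2:**
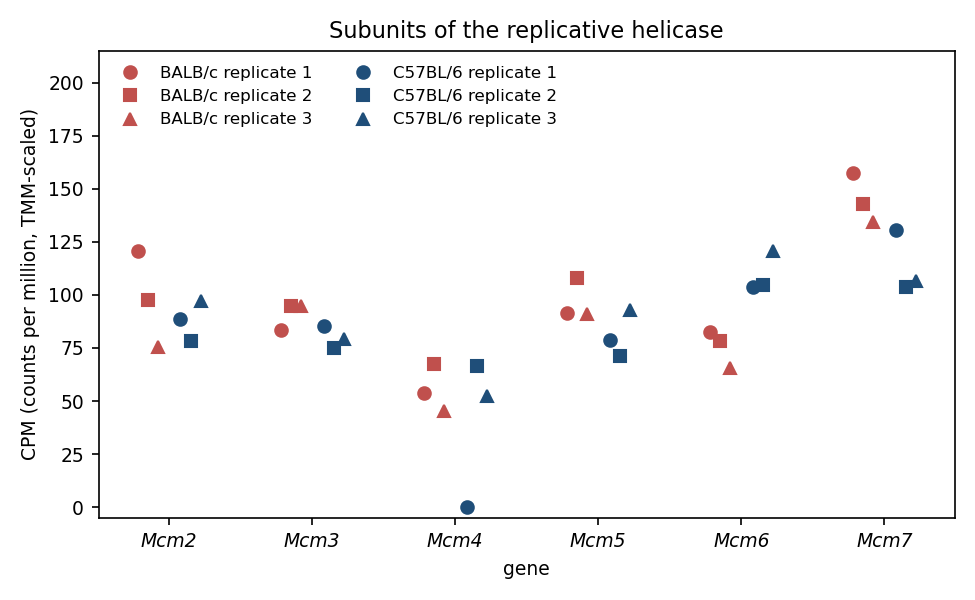
Level in CPM (vertical axis) of each subunit of the replicative helicase (horizontal axis) in the 6 libraries, 1 point each, BALB/c in red and C57BL/6 in blue, with a shape for each replicate. Mcm6 is higher in the C57BL/6 libraries and Mcm7 in the BALB/c libraries, and Mcm4 is at 0 in C57BL/6 replicate 1.

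Among genes that supply and hold the DNA polymerase, the 4 tested had positive differences and 0 passed in edgeR. Rrm2, the regulated subunit of ribonucleotide reductase, was at 68.0, 128 and 63.9 CPM in BALB/c and 19.1, 50.02 and 61.2 CPM in C57BL/6. The strains did not overlap, by a narrow margin between BALB/c replicate 3 and C57BL/6 replicate 3. Its log2 difference of 0.99 ± 0.48 was the largest of the 30 (edgeR adjusted p = 0.954). Rrm1, the large subunit of the same enzyme, was at 115, 165 and 129.7 CPM in BALB/c and 102, 113 and 136 CPM in C57BL/6, with overlap and a log2 difference of 0.22 ± 0.25. Over the 10 tested S phase members the median log2 difference was 0.24, and 0.23 without C57BL/6 replicate 1.

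Cyclins and the partner of Cdk1 gave 4 positive differences and 0 calls in edgeR. Ccnb2, cyclin B2, was at 56.0, 69.4 and 61.9 CPM in BALB/c and 47.4, 53.1 and 74.5 CPM in C57BL/6. The strains overlapped, and the log2 difference of 0.09 ± 0.28 turned to -0.15 with quality weights and -0.049 without C57BL/6 replicate 1. Ccnb1, cyclin B1, was at 49.4, 41.9 and 31.9 CPM in BALB/c and 2.29, 41.4 and 31.4 CPM in C57BL/6, so that its log2 difference of 0.70 ± 0.76 came with 1 low library. Both cyclins carry the spaced CCAAT boxes printed above.

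Mitotic kinases, the spindle checkpoint and the chromosomal passenger complex gave 3 positive and 2 negative differences, and 0 calls in edgeR. Plk1, a kinase that acts from entry into mitosis to cell division, was at 92.7, 117 and 132 CPM in BALB/c and 228, 86.8 and 163 CPM in C57BL/6, highest in C57BL/6 replicate 1. Its log2 difference was -0.48 ± 0.37 (edgeR adjusted p = 0.954). Birc5, survivin, a passenger protein, was at 78.7, 89.5 and 86.1 CPM in BALB/c and 29.8, 51.6 and 76.1 CPM in C57BL/6, without overlap, and its log2 difference was 0.68 ± 0.36 (edgeR adjusted p = 0.954). Ube2c, the ubiquitin-conjugating enzyme of the anaphase promoting complex, was at 161, 273 and 249 CPM in BALB/c and 351, 156 and 298 CPM in C57BL/6. The strains overlapped, at a log2 difference of -0.24 ± 0.36.

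Spindle, motor and cytokinesis genes gave 5 positive differences and 1 negative, with 0 calls in edgeR. Racgap1, which with Kif23 forms centralspindlin, was at 93.4, 79.5 and 75.5 CPM in BALB/c and 50.4, 61.7 and 88.4 CPM in C57BL/6. The strains overlapped, at a log2 difference of 0.30 ± 0.29 that turned to -0.033 with quality weights. Hmmr, a spindle and hyaluronan receptor protein, was at 18.0, 16.1 and 27.1 CPM in BALB/c and 1.53, 15.6 and 26.1 CPM in C57BL/6. Its level was low in C57BL/6 replicate 1 and otherwise overlapped. The log2 difference of 0.42 ± 0.76 turned to -0.23 with quality weights and -0.11 without C57BL/6 replicate 1. Of the chromosomal genes, Cenpa, the centromeric histone H3 variant, was at 101, 117 and 84.2 CPM in BALB/c and 98.5, 95.4 and 121 CPM in C57BL/6. The strains overlapped, and the sign of its log2 difference of -0.06 ± 0.24 turned with library totals alone (0.013), upper quartile scaling (0.0042) and without BALB/c replicate 3 (0.052) or C57BL/6 replicate 3 (0.039). Mki67, the Ki-67 antigen used to count cycling cells, was at 22.7, 26.1 and 41.6 CPM in BALB/c and 2.29, 29.7 and 25.1 CPM in C57BL/6. Here too C57BL/6 replicate 1 was far below the rest, and the log2 difference was 0.63 ± 0.73. Over the 20 tested mitosis members the median was 0.11, and 0.00391 without C57BL/6 replicate 1.

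The remaining 17 tested members, named here only at their ends, had log2 differences from -0.30 for Kif11, a spindle motor, to 0.87 for Pcna, the polymerase clamp, and the strains overlapped in all 17. The 6 members below the filter were Cdk1 with 0 to 8 counts per library, Bub1 with 0 to 14, Tpx2 with 5 to 47, Tyms with 3 to 21, Nusap1 with 1 to 21 and Cenpf with 0 to 7. They were left out of the main edgeR test. Without the filter on low counts 0 members other than Stmn1 passed. Nusap1, a spindle protein, was the 1 of the 6 without overlap, at 4.00, 7.52 and 10.6 CPM in BALB/c and 0.764, 2.34 and 3.88 CPM in C57BL/6, near the level of a few counts. Near-identical copies met the search limits for 7 of the 37 members, and exons of 11 overlapped another annotated gene. Mcm5, Kif11 and Cenpf had stretches shared with 17, 12 and 21 other genes, and Cks2 had 3 such partners. Mki67 had 1, Gm44521, over 190 nt. Counts of these 5 members are uncertain too.

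In C57BL/6 replicate 1 members lay anywhere from far below to above the other libraries. Of the 30 tested members, 6 lay at least 4-fold below all other libraries there, against 0 in each of the other 5. They are named after their values were seen. Mcm4 had 0 counts there, which allows up to 2.29 CPM, against 45.5 to 67.6 CPM elsewhere, while Mcm2, Mcm3, Mcm5, Mcm6 and Mcm7 were at 78.7 to 131 CPM in the same library. Pcna was at 4.58 CPM against 60.4 to 117 CPM in the other libraries, and Prc1, which bundles the central spindle, at 5.35 CPM against 32.0 to 54.5 CPM. Ccnb1, Hmmr and Mki67 are given above. The next lowest were Rrm2, Ccna2, Birc5, Cks2 and Aurkb. Their log2 deviations from the mean of the other libraries were -1.83, -1.76, -1.31, -1.004 and -0.97, in that order. Smaller deviations below 0 included -0.64 for Racgap1, -0.60 for Kif20a, -0.39 for Ccnb2 and -0.35 for Rrm1. Each of these was at its lowest level of the 6 libraries there. Ube2c, Plk1, Tk1 (thymidine kinase), Aurka and Kif11 were each at their highest level in that library, Kif11 by a narrow margin. Over the last 500 nt of the transcript the 6 had a median GC content of 40.1% (30.6% to 44.6%) and the other 24 one of 44.2% (33.6% to 55.2%). Its share of epithelial markers was the highest of all, and the part of either in the losses was not tested.

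**Figure D3:**
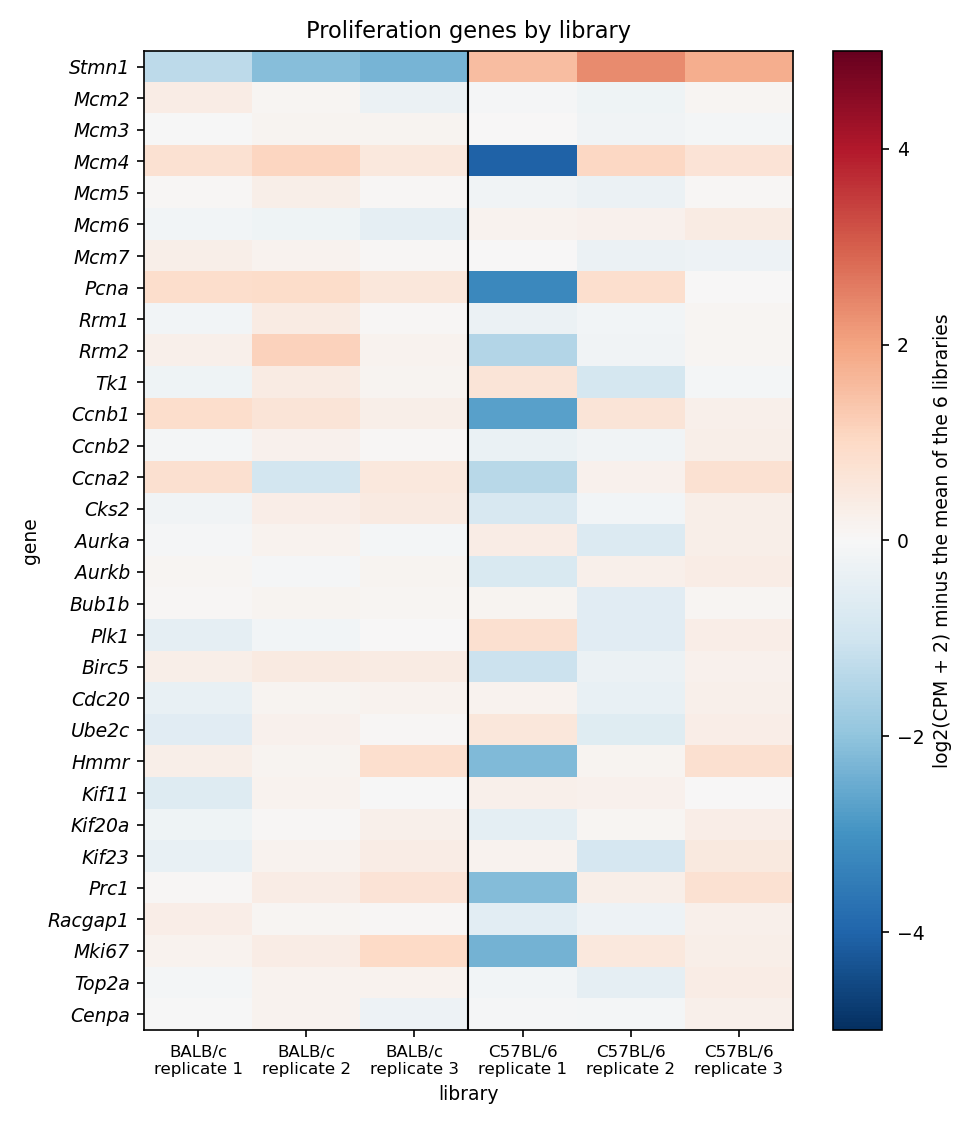
Each tested member (rows) in each library (columns) as log2(CPM + 2) minus its mean over the 6 libraries, blue for lower and red for higher. Stmn1 splits by strain, and the 6 deepest blue cells of C57BL/6 replicate 1 are Mcm4, Pcna, Ccnb1, Hmmr, Prc1 and Mki67.

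Summed over the members, the strains overlapped. The 37 genes held 0.217%, 0.256% and 0.227% of all counts in the BALB/c libraries and 0.174%, 0.189% and 0.262% in the C57BL/6 libraries, by replicate. That is 0.233% ± 0.0202 in BALB/c and 0.209% ± 0.0469 in C57BL/6 (SD, n = 3 each), or 0.226% in C57BL/6 without replicate 1. S phase members summed to 943, 1086 and 868 CPM in BALB/c and 717, 813 and 871 CPM in C57BL/6. Mitosis members summed to 1165, 1398 and 1402 CPM in BALB/c and 1268, 1028 and 1573 CPM in C57BL/6. The ratio of the sums, S phase to mitosis, was 0.809, 0.777 and 0.619 in BALB/c and 0.566, 0.791 and 0.554 in C57BL/6, so the balance of the phases overlapped between the strains. The share of epithelial markers in the same libraries was 0.156%, 0.962% and 0.710% in BALB/c and 1.46%, 0.264% and 0.995% in C57BL/6, and its part in the ratio was not tested.

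Set against the other members in the same library, Stmn1 stood lower in BALB/c and higher in C57BL/6. On the log2 CPM scale with a prior count of 2, Stmn1 lay -1.34, -2.40 and -2.71 from its mean over the 6 libraries in BALB/c and 1.78, 2.61 and 2.06 in C57BL/6. The mean of the other 30 lay at 0.08, 0.26 and 0.22 in BALB/c and at -0.78, -0.08 and 0.29 in C57BL/6. The gap, Stmn1 minus the others, was -2.34 ± 0.81 in BALB/c and 2.34 ± 0.50 in C57BL/6 (SD, n = 3 each), a difference of -4.68. Without C57BL/6 replicate 1 the difference was -4.56. Since the contrast chose Stmn1, the gap is a description.

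**Figure D4:**
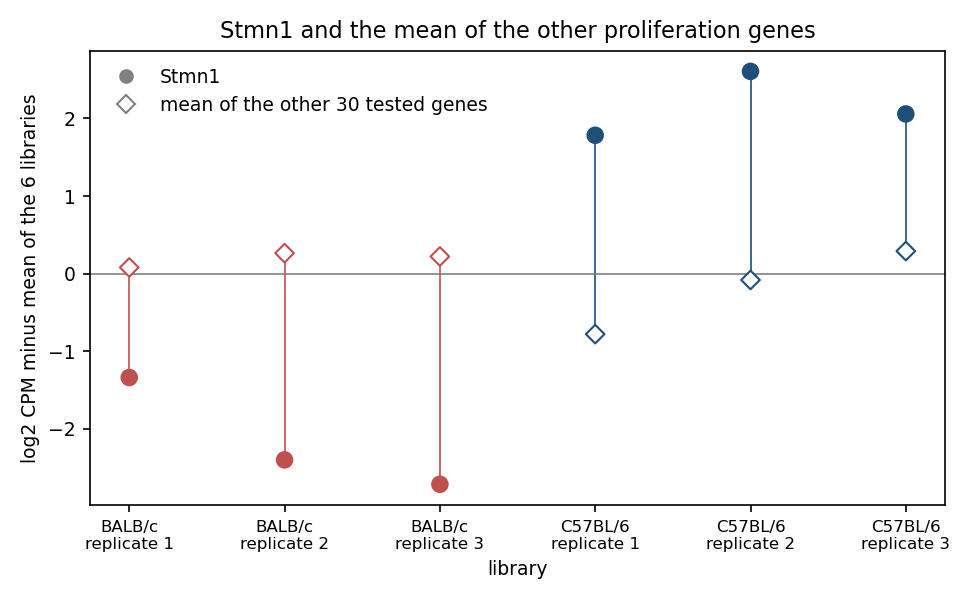
Log2 CPM minus the mean of the 6 libraries (vertical axis) for Stmn1 (filled circles) and for the mean of the other 30 tested members (open diamonds) in each library. The diamonds stay between -0.78 and 0.29, while the circles lie at or below -1.34 in BALB/c and at or above 1.78 in C57BL/6.

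Variation within a strain does not enter the size of the strain difference, though it enters the adjusted p by which Stmn1 was selected. After strain means were removed, Stmn1 had a Pearson correlation of 0.10 with the mean of the other members over 6 libraries, which share depth and preparation. For each of the other 30 against the mean of the remaining 29 the median correlation was 0.54, from -0.83 for Mcm7 to 0.996 for Birc5, and 11 of the 30 were below Stmn1. The value for Stmn1 rests on single libraries: it was -0.70 without C57BL/6 replicate 1 and 0.47 without BALB/c replicate 1. Without C57BL/6 replicate 1 the median of the 30 was 0.72, and 2 of the 30 were below Stmn1. The value for Stmn1 also rests on 1 to 6 counts of it per BALB/c library, and the part of counting error was not tested. Among the 30 themselves, 282 of 435 pairs had a positive correlation.

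Other genes of the cycle, from lists beyond the members, gave no call either. Calls were rare over all 8752 tested genes too, at 0.206% in edgeR, with 71 genes in DESeq2 and 3 in limma-voom. In lists of this size, 0 calls therefore do not set these genes apart from the rest. Of 28 tested genes of origins and the replisome 0 passed in edgeR, DESeq2 or limma-voom, 1 had an unadjusted p under 0.05, and the median log2 difference was 0.31, or 0.18 without C57BL/6 replicate 1. Its ends were Pold2, a subunit of polymerase delta, at -0.42 ± 0.39, and Orc1, of the origin recognition complex, at 1.16 ± 0.51. Of 32 other mitosis genes 0 passed in the 3 tools and 1 had an unadjusted p under 0.05, with a median of 0.21 (0.19 without C57BL/6 replicate 1), from Ncapd2, a condensin subunit, at -0.53 ± 0.30 to Spc25, of the kinetochore, at 1.45 ± 0.88. Spc25 was at 22.01, 22.5 and 10.6 CPM in BALB/c and 0, 9.38 and 10.00 CPM in C57BL/6.

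Of the factors that switch these genes on and off, E2F, DREAM and FoxM1 regulators, 18 were tested, and 0 passed in the 3 tools or at an unadjusted p under 0.05. The median was 0.41, or 0.10 without C57BL/6 replicate 1. The strains did not overlap in 7 of the 18, or 38.9%, 3 lower and 4 higher in BALB/c. That share was 11.4% over all tested genes and 12.5% to 23.1% in the other further lists. The pocket proteins of DREAM stood at both ends, Rbl2 (p130) at -0.68 ± 0.39 and Rbl1 (p107) at 1.26 ± 0.86, with Rbl1 at 0 counts in C57BL/6 replicate 1. Of 8 tested chromatin proteins of dividing cells 0 passed in the 3 tools or unadjusted, with a median of 0.62 (0.28 without C57BL/6 replicate 1), from Dnmt1, the maintenance DNA methyltransferase, at -0.33 ± 0.24 to Ezh2, of Polycomb, at 0.98 ± 0.58. Of 8 tested quiescence and growth arrest genes 0 passed in the 3 tools, with a median of 0.11 (0.04 without C57BL/6 replicate 1). An unadjusted p under 0.05 in edgeR was found for 2 of the 8, beside 3.86% of all tested genes. The 2 were Gas6, a ligand of TAM receptors, at -1.24 ± 0.50 and Klf2 at 0.85 ± 0.30, both with an edgeR adjusted p of 0.954.

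Stathmin acts on tubulin, and so its relatives and partners were listed with the microtubule genes. Of 26 tested stathmins, tubulins and microtubule genes 8 had positive and 18 negative differences. Their median of -0.07 turned to 0.00585 without C57BL/6 replicate 1. In edgeR 0 passed, and 2 had an unadjusted p under 0.05, beside 3.86% of all tested genes. Tubb3, a tubulin best known from neurons, was at 39.4, 10.4 and 22.3 CPM in BALB/c and 199, 118 and 117 CPM in C57BL/6. The strains did not overlap, and the log2 difference was -2.61 ± 0.51 (edgeR adjusted p = 0.239). Of 15 alternatives 2 called it: DESeq2 at an adjusted p of 4.2e-04, and the quality-weighted limma-voom at 0.0206. Stmn4, another stathmin, had a log2 difference of -0.71 ± 0.62, and the other end of the list was Mapre2, a protein of microtubule ends, at 1.22 ± 0.70.

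Of the genes beside Stmn1 on chromosome 4, Pafah2 stood nearest to it in direction and the rest lay near 0. Of 15 annotated genes within 200 kb, 5 were tested and 0 passed in edgeR. Pafah2, a phospholipase 40.9 kb upstream, was at 28.7, 29.7 and 31.9 CPM in BALB/c and 49.7, 41.4 and 48.4 CPM in C57BL/6. Its log2 difference was -0.63 ± 0.26 (edgeR adjusted p = 0.954). The strains did not overlap. Aunip, Mtfr1l, Selenon and Man1c1, all downstream, had -0.02, 0.01, -0.02 and -0.15.

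Genes were also ranked by likeness to Stmn1 over the 6 libraries, a measure that carries the strain split on which Stmn1 was selected. Among 4513 tested genes whose mean log2 CPM reached 5, the 5 with the highest Pearson correlation with Stmn1 were Nfu1 (0.998), Pf4 (0.998), Snhg6 (0.988), Rpl29 (0.985) and Pop4 (0.973). Nfu1 acts in iron-sulfur cluster assembly, Pf4 is a chemokine, Snhg6 hosts small nucleolar RNAs, Rpl29 is a ribosomal protein gene and Pop4 a subunit of ribonuclease P. All 5 were lower in every BALB/c library than in any C57BL/6 library, which a match to Stmn1 makes likely. A correlation ignores size: Nfu1 had a log2 difference of -0.68, against -4.68 for Stmn1. The cut at 5 left out members such as Mki67 and Ccnb1, with a mean log2 CPM of 4.34 and 4.70, and kept others such as Ube2c at 7.90. Stmn1 itself had a mean of 3.64. Because the rank carries the strain split, it cannot place Stmn1 inside or outside the cycle. Pf4 was at 52.0, 39.4 and 37.7 CPM in BALB/c and 147, 182 and 144 CPM in C57BL/6. Of the 30 other members the closest was Mcm6 at 0.938, the farthest Mcm3 at -0.868, and the median was -0.35.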

How the data were processed

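Values are raw counts by gene symbol for 6 libraries, in 1 table that the authors deposited. STAR 2.4.2a, HTSeq, bcl2fastq and the mm10 build are named in the submitters' processing notes, with settings, annotation, strand use and handling of molecular identifiers not given in the sources used here. Columns were matched to samples by library name. Each listed gene reaches at least 6 counts in 1 library.

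The test across all genes was that of edgeR 4.0.16 (R 4.3.3): filterByExpr by strain left 8752 genes, TMM factors ran from 0.866 to 1.06, and a robust quasi-likelihood fit on strain alone gave two-sided p-values, adjusted by Benjamini-Hochberg, with a threshold of 0.05. A standard error is the log2 difference divided by the square root of F. CPM use TMM-scaled totals, and log2 CPM a prior count of 2. The fit was tested on simulated data. DESeq2 1.42.0, limma 3.58.1, other scalings and filters, a replicate block and each library left out were alternatives.

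Members and lists were chosen with earlier results of these data known. Named were Stmn1, calls, and in each role group the member with the highest level and that with the largest difference, the 2 ends of each further list and genes beside Stmn1. Positions and transcripts are from GENCODE vM21 (GRCm38, the assembly of mm10), copies were searched with BLAST+ 2.17.0, and promoters are from RefSeq. Total counts of 1035485 to 4665896 set the counting precision. The interval of a ratio and the 3-count floor reflect counting alone. No batch is given. The edgeR p-values set the strain difference against the spread between the 3 cultures of each strain, estimated with information shared across genes.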

Additional observations from a re-analysis of the deposited data

How the results depend on the processing

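The count of members past the threshold was 1 (Stmn1) and became 0 with library totals alone, limma-voom and the replicate block, and 0 to 1 when each library was left out. It was 1 only without C57BL/6 replicate 1. The log2 difference of Stmn1 was -4.61, -4.74 and -4.76 under those 3 settings, and -5.40 to -4.37 when each library was left out, past the threshold in 7 of 15 alternatives. Members other than Stmn1 gave 0 in all 15. Over all tested genes the count of 18 became 11 with library totals alone, 71 with DESeq2, 3 with limma-voom, 57 with quality weights, 0 with the replicate block and 0 to 25 when each library was left out. The microtubule list had 1 gene past the threshold with DESeq2 and 1 with quality weights, Tubb3 in both.

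Same-numbered libraries deviated with correlations of -0.42, -0.40 and -0.08, and differently numbered ones with -0.33 to 0.58. Deviations from a mean of 3 libraries are tied to each other, so these values cannot decide whether libraries were prepared in pairs. As no batch is given, the replicate block was an alternative only.

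With quality weights the median of the members was -0.094, and -0.066 without Stmn1. The median of all tested genes was 0.075 with upper quartile scaling, 0.085 with library totals alone and -0.018 to 0.057 when each library was left out. Of 194 values of the 13 named members other than Stmn1, 185 kept their direction and 0 passed. With quality weights Ccnb2 was -0.15, Racgap1 -0.033 and Hmmr -0.23. Cenpa was 0.0042 with upper quartile scaling and 0.013 with library totals alone. When each library was left out, Ccnb2 was -0.049 to 0.30, Hmmr -0.11 to 1.22 and Cenpa -0.18 to 0.052. The within-strain correlation of Stmn1 was -0.70 to 0.47. The cause of these changes was not tested. Low counts limit the precision of the values of Stmn1 in BALB/c and of the 6 members below the filter.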
